A study of Canis lupus familiaris with 6 samples.

Results

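Glycolysis genes and genes of the hypoxia response were followed in 6 primary lines of canine osteosarcoma, the most common cancer of bone in dogs. The list held 36 genes: 2 glucose transporters, 17 glycolytic enzymes, 4 regulators of glycolysis, 2 subunits of the hypoxia-inducible factors (HIF) and 11 other genes induced by low oxygen. A gene was measured by a probe set annotated to that gene alone, and its brightest such probe set was used. Such a probe set existed for 35 of the 36 genes, out of 15115 genes on the array. Of the 35, 32 had a mean over the lines at or above the filter on dim probe sets, a log2 value of 6.07, and were tested together with 9145 genes in all.

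The tumorigenic group (n = 3) comprised UWKOS1, UWKOS3 and UWKOS7, whose cells gave rise to tumours in recipient mice. The non-tumorigenic group (n = 3) comprised UWKOS2, UWKOS6 and UWKOS8, whose cells did not. All 6 were cultured in the same serum-containing medium, were handled alike with no treatment contrast, and were harvested before confluence; the oxygen tension of the cultures is not given in the labels. RNA came from the cultured cells and not from the tumours in mice, and 1 Affymetrix array was hybridised per line. A p-value thus sets the difference of the group means against the spread between these lines. For each gene limma draws that spread towards the one common to all genes tested, and the SE and interval use the result. Variation between lines and between arrays cannot be told apart. Values are log2, and each difference is the tumorigenic mean less the non-tumorigenic mean on that scale.

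Glycolysis converts glucose to pyruvate, and lactate dehydrogenase reduces pyruvate to lactate where it is not passed to the mitochondria. HIF is a dimer whose alpha subunit is hydroxylated by prolyl hydroxylases when oxygen is present and then degraded, so HIF activity is set mainly at the protein and not the transcript level. At low oxygen HIF induces glucose transporters, most glycolytic enzymes and a set of genes outside glycolysis, among them its own hydroxylases. Many tumours, osteosarcoma included, run glycolysis at a high rate also in oxygen.

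The share of glycolysis and hypoxia genes that differed between tumorigenic and non-tumorigenic lines was near that of all genes. Of the 32 tested, EGLN3 and HK2 rose, ADM fell and 29 did not pass the threshold of 0.05 for the limma adjusted p, which is 9.38% of the members, while 12.1% of all genes tested passed. Among all genes 7.5% rose and 4.63% fell. The median difference of the members was -0.04, against 0.03 over all genes. The tumorigenic and non-tumorigenic values did not overlap for 7 of the 32 members, 3 higher and 4 lower, while this held for 38.4% of all genes, 21.7% higher and 16.6% lower. The wider of the ranges within the groups exceeded the difference of the group means in 27 of the 32 members, or 84.4%, and in 73.6% of all genes. In such bulk RNA a lower value in fewer cells and a lower value in every cell cannot be told apart.

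**Figure D1:**
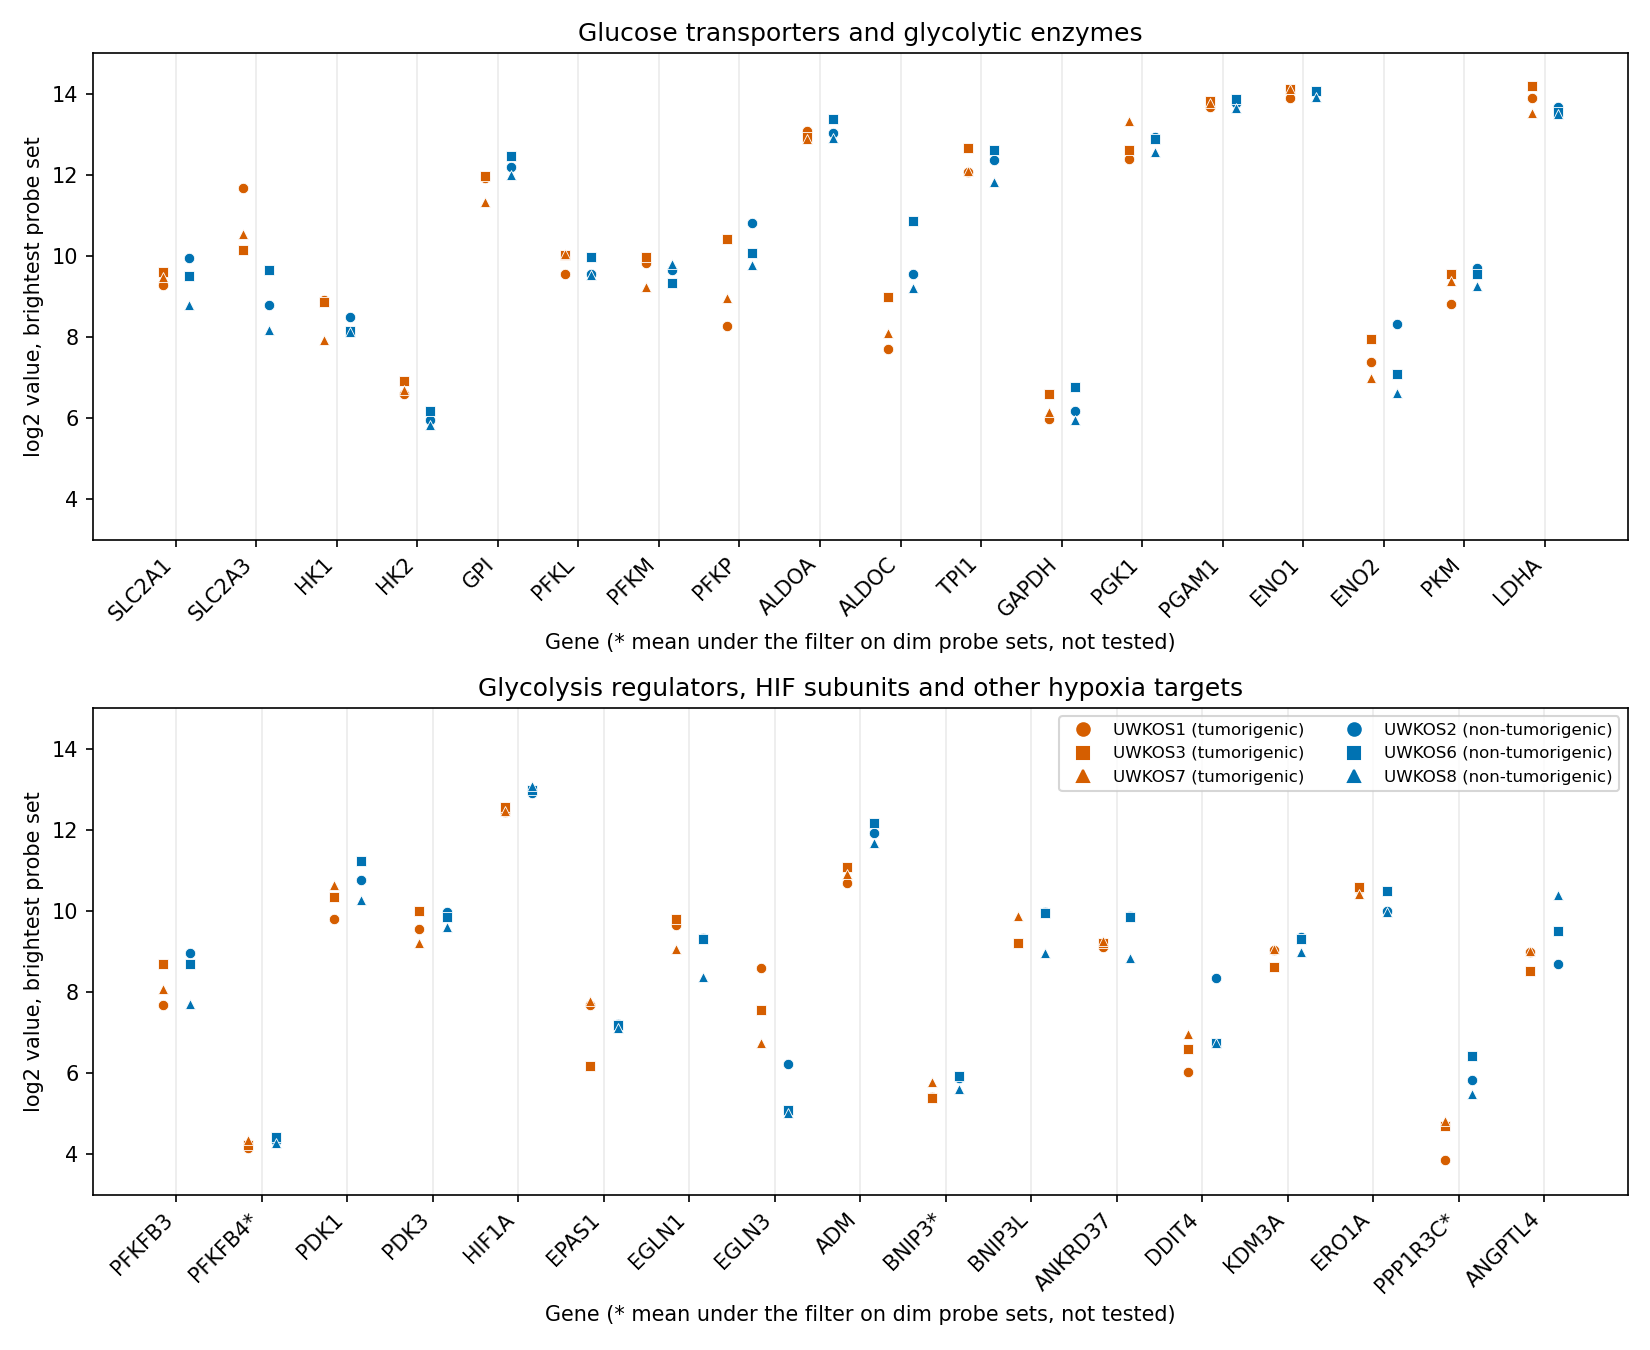
Log2 value of the brightest probe set (vertical axis) for each of 35 genes (horizontal axis), 1 point per line, tumorigenic lines in orange and non-tumorigenic lines in blue. An asterisk marks 3 genes under the filter on dim probe sets. The groups do not overlap for SLC2A3, HK2 and EGLN3, where the tumorigenic lines are higher. Nor do they for ADM, ALDOC, GPI, HIF1A and PPP1R3C, where these lines are lower. They overlap for most glycolytic enzymes.

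Measures outside these genes were compared first. Of 10 osteoblast and bone matrix markers 8 were measured and 5 were above the filter, and 0 passed in limma. The collagen gene COL1A1 lay between 12.28 and 13.51, while COL1A2 and SPARC were lower in every tumorigenic line, by -0.93 and -0.88. The late marker BGLAP lay at 5.32 to 6.64, ALPL and IBSP were under the filter, and SPP1 read 9.76 in UWKOS1 and at most 3.30 elsewhere. Of 5 leukocyte and macrophage markers CD68, at 5.71 to 7.68, and CD14 were above the filter, and PTPRC was at most 5.17. CD68 differed by -1.07 (limma adjusted p = 0.143). Of 4 measured epithelial markers 0 were above the filter on average, yet their mean was 4.07 to 6.41 in the tumorigenic and 3.93 to 4.13 in the other lines. EPCAM read 7.65 in UWKOS1 and at most 4.0 elsewhere, and KRT8 read 6.49 in UWKOS1, 6.64 in UWKOS3 and at most 3.04 elsewhere. The mean of the 5 endothelial markers was 5.89 to 6.13 and 5.59 to 5.77. The part of these markers in the differences below was not tested. MYOD1 and MYOG, which define skeletal muscle, a tissue with glycolytic isozymes of its own, were under the filter. The mean of the 4 measured muscle markers was 5.32 to 6.20 in the tumorigenic and 6.68 to 6.80 in the non-tumorigenic lines. Only 1 of them, the actin ACTA1, passed, and it fell by 3.70 (limma adjusted p = 0.0404). Its probe set is named as able to cross-hybridise. The other measured muscle markers differed by 0.40 for DES, 0.04 for MYOD1 and -0.16 for MYOG. The log2 ratio of the 3' to the 5' GAPDH control probe sets, a sign of RNA integrity, was 0.64 to 0.84 in the tumorigenic lines and 0.78, 1.00 and 1.44 in UWKOS2, UWKOS6 and UWKOS8. Its part in the differences below was not tested beyond its use as a covariate, with which 0 members and 9 of 9145 genes passed in limma.

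The glucose transporters differed from each other. SLC2A3 encodes GLUT3, a transporter with high affinity for glucose. It read 11.68 in UWKOS1, 10.14 in UWKOS3 and 10.53 in UWKOS7, against 8.79 in UWKOS2, 9.64 in UWKOS6 and 8.16 in UWKOS8. Every tumorigenic line was thus above every other line, with UWKOS1 standing highest. The difference was 1.92 with an SE of 0.52 (95% interval 0.68 to 3.16), and it did not pass over all genes (limma adjusted p = 0.0606). Its other 3 probe sets differed by 2.35, 0.90 and 1.02, each without overlap between the groups. The first of these was tested in the fit over all probe sets and passed there (limma adjusted p = 0.0392), as did 12% of all probe sets tested.

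SLC2A1, which encodes GLUT1, the transporter most widely induced by HIF, showed no such split. Its values were 9.28, 9.59 and 9.47 in the tumorigenic lines UWKOS1, UWKOS3 and UWKOS7, and 9.95, 9.51 and 8.78 in UWKOS2, UWKOS6 and UWKOS8. The tumorigenic lines lay inside the range of the others, and the difference of 0.03 had a 95% interval from -0.71 to 0.78. Its dimmer probe sets differed by 0.41 and 0.52, with overlap between the groups. Neither passed in the fit over all probe sets (limma adjusted p = 0.51 and 0.383).

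HK2, the hexokinase isozyme of muscle and of many tumours, was the 1 glycolytic enzyme of 16 tested that rose. It read 6.58, 6.90 and 6.68 in UWKOS1, UWKOS3 and UWKOS7, against 5.95, 6.16 and 5.82 in UWKOS2, UWKOS6 and UWKOS8. The groups did not overlap, and the difference was 0.74 with an SE of 0.17 (limma adjusted p = 0.0422). The non-tumorigenic mean of 5.98 lay under the filter value and is not known to lie above background, so HK2 was tested through its tumorigenic values and the size of the rise is uncertain. In the unfiltered fit it also passed (limma adjusted p = 0.0434). A second, dimmer HK2 probe set differed by 0.48, also without overlap. HK2 did not pass when any 1 of the 6 lines was left out, with limma adjusted p between 0.059 without UWKOS7 and 0.127 without UWKOS8. In these fits HK2 differed by 0.65 to 0.84. The share of all genes that passed ran from 0.131% without UWKOS6 to 14.4% without UWKOS7. HK1, the housekeeping hexokinase, differed by 0.32 (95% interval -0.41 to 1.05), with UWKOS7 lowest and UWKOS1 highest.

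For most enzymes along the rest of the pathway the group means lay close together. The lines themselves did not, since the 6 values of an enzyme spanned a median of 0.86 log2 units, against 1.01 over all genes. ENO1, the main enolase, averaged 14.03 ± 0.14 in the tumorigenic and 14.0 ± 0.08 in the other lines (SD, n = 3 each). The phosphoglycerate mutase PGAM1 averaged 13.75 ± 0.08 and 13.76 ± 0.11 (SD, n = 3 each). Their 6 values spanned 0.25 and 0.22 log2 units, the narrowest ranges among the tested members. Dimmer probe sets of these genes ranged more widely, from 12.76 to 13.62 for ENO1 and from 11.95 to 12.93 for PGAM1, with UWKOS8 lowest on both. The difference was 0.01 for the triosephosphate isomerase TPI1, -0.01 for the phosphoglycerate kinase PGK1 and -0.14 for the aldolase ALDOA. A dimmer tested TPI1 probe set differed by 0.46, with overlap between the groups, and a further one under the filter by -0.33. The dimmer tested probe sets of PGK1 and ALDOA differed by -0.14 and 0.04. Of the 16 enzymes, 13 (81.2%) differed by less than 0.5, as did 59.6% of all genes. For 10 enzymes (62.5%) the whole 95% interval lay within 1 log2 unit of 0, as for 4573 of the 9145 genes. The median difference over the 16 enzymes was -0.0026, with 8 higher and 8 lower.

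The lactate dehydrogenase gene LDHA differed by 0.29 (95% interval -0.20 to 0.79). Its values were 13.89, 14.18 and 13.51 in UWKOS1, UWKOS3 and UWKOS7 and 13.66, 13.55 and 13.49 in UWKOS2, UWKOS6 and UWKOS8. UWKOS1 and UWKOS3 were the highest, and UWKOS7 lay among the non-tumorigenic lines. The dimmer LDHA probe set differed by 0.58, with overlap, and did not pass in the fit over all probe sets (limma adjusted p = 0.236). LDHB, the heart-type subunit, had no probe set of its own. A probe set annotated to LDHB together with 3 other symbols read 13.27 in UWKOS1 and 13.06 in UWKOS3, and 11.60 to 12.00 in the other 4 lines; which of these genes it measured cannot be told apart. The pyruvate kinase PKM differed by -0.26 (95% interval -0.85 to 0.33).

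The isozymes within a step did not move alike. ALDOC, the brain-type aldolase, read 7.71, 8.98 and 8.10 in UWKOS1, UWKOS3 and UWKOS7, against 9.54, 10.86 and 9.20 in UWKOS2, UWKOS6 and UWKOS8. Every tumorigenic line lay below every non-tumorigenic line, on both of its probe sets. The difference of -1.60 (SE 0.51) did not pass (limma adjusted p = 0.0889). PFKP, the platelet-type phosphofructokinase, differed by -0.99 (95% interval -2.36 to 0.38), with 8.28 in UWKOS1, 8.96 in UWKOS7 and 10.42 in UWKOS3, which lay among the non-tumorigenic values of 9.77 to 10.81. The muscle-type PFKM differed by 0.08. The liver-type PFKL differed by 0.19, and by 0.63, 0.40 and 0.76 on its other probe sets, the last without overlap and none of them passing in the limma fit over all probe sets. GPI, the glucose-6-phosphate isomerase, read 11.33 to 11.96 in the tumorigenic and 11.98 to 12.47 in the non-tumorigenic lines. These ranges almost touch, and the difference of -0.48 did not pass (limma adjusted p = 0.215). ENO2, the neuronal enolase, differed by 0.10, and its non-tumorigenic values alone ranged from 6.62 in UWKOS8 to 8.32 in UWKOS2.

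GAPDH, the glyceraldehyde-3-phosphate dehydrogenase, was read from a dim probe set at 5.96 to 6.76 and differed by -0.06. The array also carries 6 control probe sets for GAPDH, which lay between 12.0 and 14.34. The control probe sets differed by 0.16 to 0.60 between the groups, and the largest of these belonged to a 5' end, where UWKOS8 read 12.0 and the other lines 12.89 to 13.46. With the brightest control probe set in its place, the median difference of the 16 enzymes was 0.02.

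**Figure D2:**
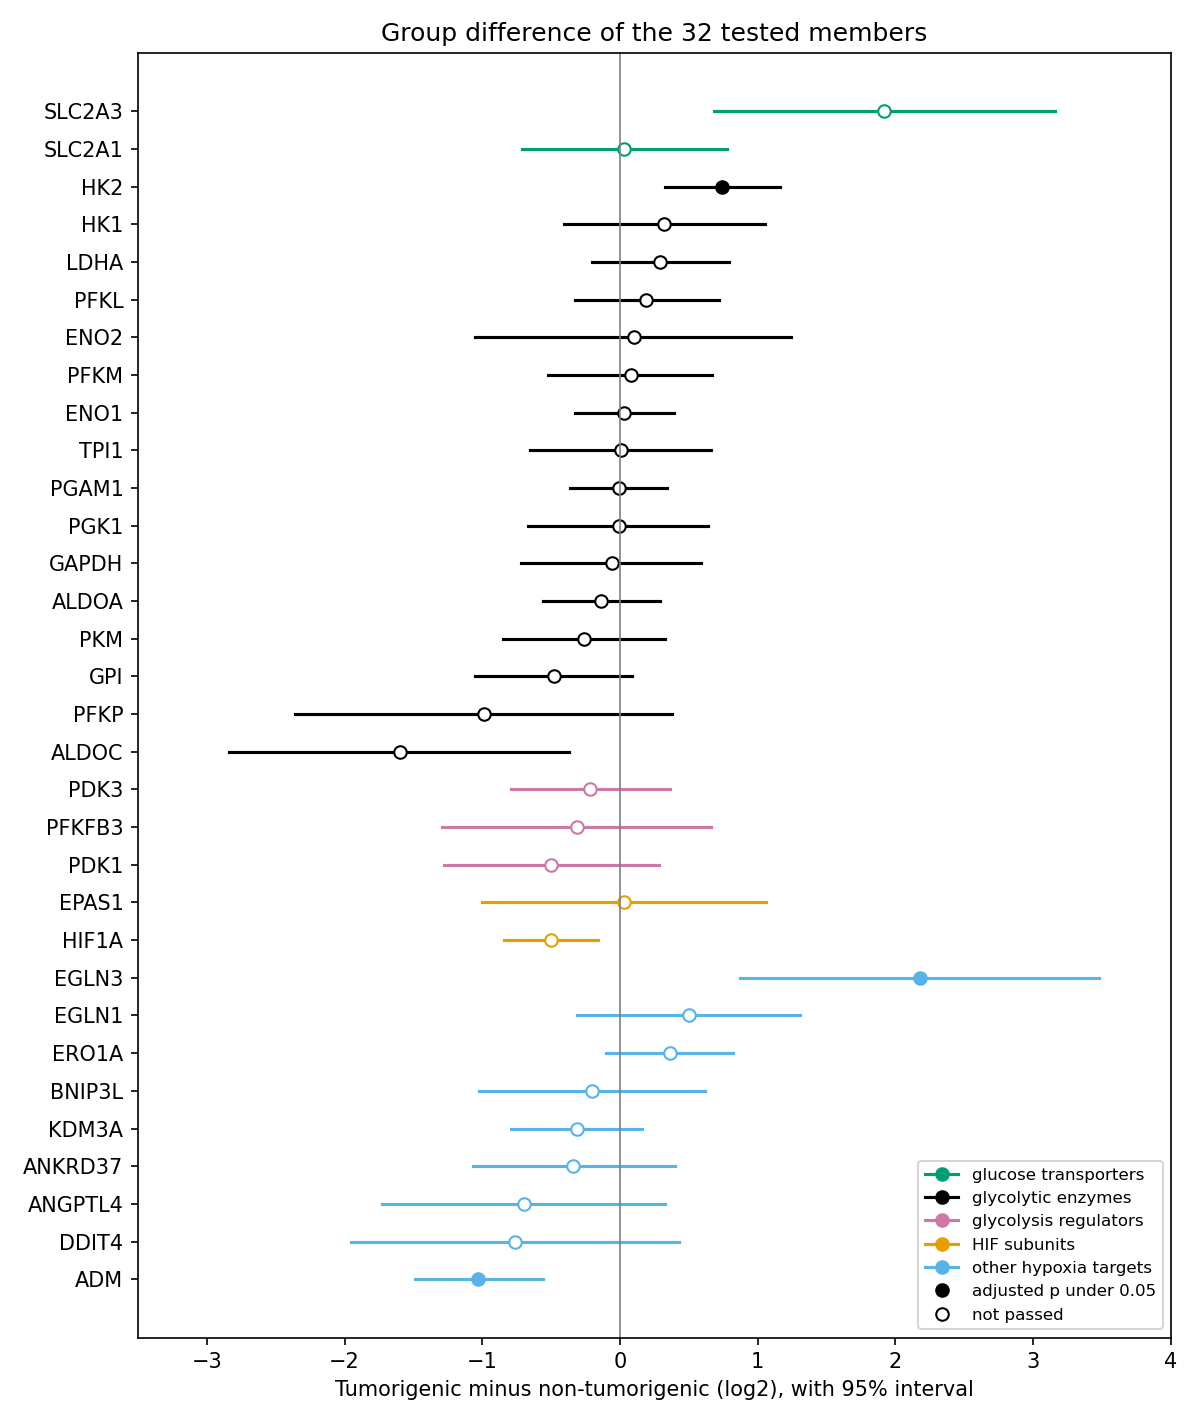
Difference of the group means (point) with its 95% interval (line) for the 32 tested genes, in log2 units on the horizontal axis and coloured by role. Filled points are HK2, EGLN3 and ADM, whose limma adjusted p was under 0.05; most enzymes lie close to 0.

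Regulators of glycolysis showed no difference that passed: 0 of 3 tested passed in limma, and 0 had an unadjusted p under 0.05. PFKFB3, which makes the activator of phosphofructokinase, differed by -0.31, with 8.97 in UWKOS2 and 7.67 and 7.70 in UWKOS1 and UWKOS8. PDK1 and PDK3 phosphorylate and switch off the pyruvate dehydrogenase complex, and they differed by -0.50 and -0.22. The probe sets of PDK1 disagreed, since the dimmer of the 2 differed by 0.53. The dimmer PDK3 probe set differed by -0.80 without overlap, and did not pass in the fit over all probe sets (limma adjusted p = 0.0771). PFKFB4 was under the filter at 4.15 to 4.42 in all lines. Of 21 members with more than 1 tested probe set, 14 had all of them on the same side of 0 and 7 did not.

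HIF1A, the oxygen-regulated alpha subunit found in most cells, had narrow groups. It read 12.44, 12.57 and 12.47 in UWKOS1, UWKOS3 and UWKOS7, against 12.91, 12.99 and 13.08 in UWKOS2, UWKOS6 and UWKOS8. All tumorigenic values were below all others. The difference of -0.50 (SE 0.14) did not pass (limma adjusted p = 0.0679), and it passed in 1 of 19 alternatives, with an intensity trend (limma adjusted p = 0.037), where 11.8% of all genes passed. Its other probe sets overlapped between groups and differed by -0.25 and 0.05. EPAS1, which encodes the HIF-2 alpha subunit, differed by 0.03: UWKOS3 was low at 6.18, UWKOS1 and UWKOS7 were high at 7.67 and 7.77, and the other 3 lines lay between 7.12 and 7.21.

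Among the other hypoxia targets the members that passed moved in opposite directions. EGLN3, also called PHD3, is a prolyl hydroxylase that marks HIF alpha for degradation and is itself induced by HIF. It read 8.58 in UWKOS1, 7.55 in UWKOS3 and 6.73 in UWKOS7, against 6.23 in UWKOS2, 5.08 in UWKOS6 and 5.02 in UWKOS8. Groups did not overlap, though UWKOS7 and UWKOS2 were 0.50 apart. EGLN3 rose by 2.18 with an SE of 0.54 (limma adjusted p = 0.0496), and its second probe set differed by 2.22. Its non-tumorigenic mean of 5.44 was under the filter value, so the size of the rise is uncertain and the gene passed the filter through its tumorigenic values. Fitted without the filter it did not pass (limma adjusted p = 0.0723). Without UWKOS7 it passed (limma adjusted p = 0.0324), as did 14.4% of all genes, and without any other single line limma adjusted p was 0.0594 to 0.167. In those other fits 0.131% to 6.43% of all genes passed, and EGLN3 differed by 1.70 to 2.57.

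ADM encodes adrenomedullin, a vasodilator peptide induced strongly by HIF. It read 10.68, 11.08 and 10.92 in UWKOS1, UWKOS3 and UWKOS7, against 11.93, 12.16 and 11.68 in UWKOS2, UWKOS6 and UWKOS8. Each tumorigenic line was below each non-tumorigenic line. ADM fell by 1.03 with an SE of 0.19 (limma adjusted p = 0.028), which is 2.04-fold lower. It passed in 12 of the 19 alternatives; EGLN3 and HK2 each passed in 9 of the 18 that gave them a value. Without UWKOS7 it passed (limma adjusted p = 0.0419), as did 14.4% of all genes, and without any other single line limma adjusted p was 0.0546 to 0.111. In those other fits 0.131% to 6.43% of all genes passed, and ADM differed by -1.15 to -0.91.

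The remaining hypoxia targets did not pass, and 5 of the 7 tested had a lower mean in the tumorigenic lines. So did 4338 of the 9145 genes tested. The differences were -0.20 for the mitophagy receptor BNIP3L, -0.34 for ANKRD37, -0.31 for the histone demethylase KDM3A, -0.76 for DDIT4, an inhibitor of mTORC1, and -0.70 for ANGPTL4, an inhibitor of lipoprotein lipase. DDIT4 rested on UWKOS2 at 8.35, since the other lines lay between 6.02 and 6.96, and its probe set is named as able to cross-hybridise. ANGPTL4 was highest in UWKOS8 at 10.40 and differed in the same direction on all 3 of its probe sets. EGLN1, the main prolyl hydroxylase of most cells, differed by 0.50, and the oxidoreductase ERO1A by 0.36. A further EGLN1 probe set under the filter differed by -1.05.

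The glycogen-targeting subunit PPP1R3C lay under the filter and was not tested with the others. It read 3.85, 4.69 and 4.81 in UWKOS1, UWKOS3 and UWKOS7, against 5.83, 6.41 and 5.49 in UWKOS2, UWKOS6 and UWKOS8. The groups did not overlap on either of its probe sets, and in the fit without a filter the difference of -1.46 did not pass (limma adjusted p = 0.0602). BNIP3, a further mitophagy receptor under the filter, had a difference of -0.28 (limma adjusted p = 0.36 in the unfiltered fit).

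Set side by side, the glycolytic enzymes had a median difference of -0.0026 and the 9 tested hypoxia targets outside glycolysis one of -0.31. The gap between these medians was 0.31. As a scale, the median deviation from the gene means was taken in each line for both lists. The enzyme value less that of the other hypoxia targets had a pooled SD within groups of 0.31. This is a spread of single lines and not an SE of the gap. Without UWKOS3 the gap was 0.07, and with any other single line left out it was 0.21 to 0.38.

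UWKOS8 had the lowest value of the 3 non-tumorigenic lines in 29 of the 32 members, or 90.6%, while it was lowest in 33.3% of all genes. The exceptions were PFKM, HIF1A and ANGPTL4. It was lowest in 15 of 16 glycolytic enzymes and in 8 of 9 other hypoxia targets. Over every tested probe set of the members it was lowest in 48 of 62, or 77.4%, against 34.6% of all probe sets tested. This count was made after the values were seen. Under quantile normalization and under both other centrings it was 26 or 27 of 32.

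The median enzyme deviated from its mean over the 6 lines by -0.17 in UWKOS8, 0.05 in UWKOS2 and 0.15 in UWKOS6. For the other hypoxia targets the median deviation was -0.35 in UWKOS8, 0.30 in UWKOS2 and 0.26 in UWKOS6. UWKOS8 also had the highest GAPDH transcript-end ratio, 1.44, and the part of this in its low values was not tested. Among the tumorigenic lines UWKOS3 was highest in 12 of 16 enzymes and lowest in none, and its median enzyme deviated by 0.28, against -0.12 in UWKOS1 and -0.16 in UWKOS7. Over all genes tested UWKOS3 was the highest tumorigenic line in 33.3%. For the other hypoxia targets UWKOS3 had the lowest median deviation of the tumorigenic lines, -0.31, against -0.20 in UWKOS1 and -0.01 in UWKOS7. It was the highest tumorigenic line in 3 of these 9 genes and the lowest in 3. Without UWKOS3 the median difference of the other hypoxia targets was -0.17.

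**Figure D3:**
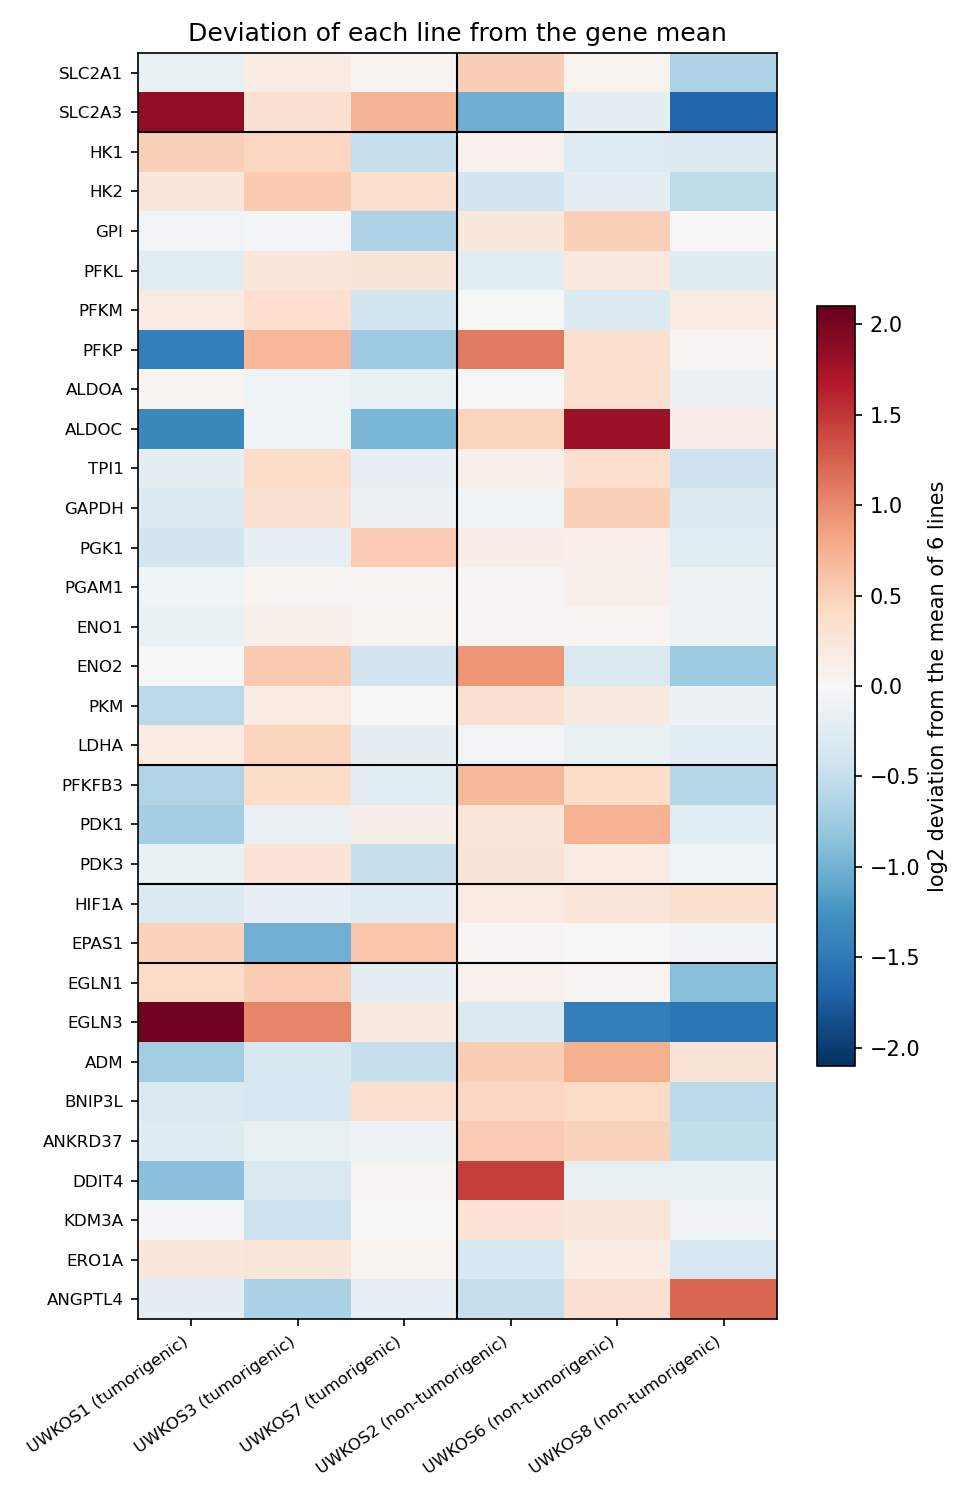
Deviation of each line (columns) from the mean of the 6 lines for each tested gene (rows), as log2 units in colour, red above and blue below the mean; horizontal lines divide the roles and the vertical line the groups. Among the 3 non-tumorigenic columns UWKOS8 is lowest in every row but PFKM, HIF1A and ANGPTL4.

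Neighbouring genes of the pathway were read from 4 lists. Of 89 genes, 79 had a probe set of their own, 60 were tested, and 3 rose, 0 fell and 57 did not pass, which is 5.0% against 12.1% of all genes; 21 had an unadjusted p under 0.05, as did 2928 of the 9145 genes. Of 11 tested further glycolysis genes, GPD2 rose. It is the mitochondrial glycerol-3-phosphate dehydrogenase, which carries reducing equivalents from glycolysis to the respiratory chain. GPD2 read 8.82, 8.85 and 9.18 in UWKOS1, UWKOS3 and UWKOS7, against 7.04, 6.71 and 6.24 in UWKOS2, UWKOS6 and UWKOS8. The groups stood far apart, with a difference of 2.29 and an SE of 0.24 (limma adjusted p = 0.0132), a fold of 4.88. It did not pass without UWKOS6 (limma adjusted p = 0.0713), where it differed by 2.31 and 12 of 9145 genes passed in all.

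Of 14 tested genes for lactate and pyruvate handling, DLAT rose. It encodes the acetyltransferase core of the pyruvate dehydrogenase complex, which passes pyruvate to the citric acid cycle. DLAT read 8.79, 9.70 and 8.82 in UWKOS1, UWKOS3 and UWKOS7, against 7.64, 7.03 and 7.15 in UWKOS2, UWKOS6 and UWKOS8, without overlap. The difference was 1.83 with an SE of 0.31 (limma adjusted p = 0.0224), and it did not pass without UWKOS6 (limma adjusted p = 0.0935) or without UWKOS8 (limma adjusted p = 0.0693). In these fits DLAT differed by 1.7 and 1.76, and 12 and 333 of 9145 genes passed in all. Groups did not overlap for 4 genes of this list that were higher and 2 that were lower, of 14, against 38.4% of all genes. Those besides DLAT did not pass and are named after their values were seen. PDK4, an inhibitor of the same complex, differed by -3.18 (limma adjusted p = 0.0522), with 3.97 in UWKOS3, 6.79 and 6.94 in UWKOS7 and UWKOS1, and 8.78 to 9.65 in the non-tumorigenic lines. Its tumorigenic mean of 5.9 lay under the filter value. PDK4 was thus tested through its non-tumorigenic values, and the size of the difference is uncertain. In the unfiltered fit it did not pass either (limma adjusted p = 0.0765). PDHX, a structural subunit, differed by 1.07 (limma adjusted p = 0.0621) and PDHA1, a catalytic subunit, by 0.47 (limma adjusted p = 0.1). The lactate and pyruvate transporter SLC16A1 differed by 1.15 (limma adjusted p = 0.0528), and BSG, the chaperone of such transporters, by -0.50 (limma adjusted p = 0.16).

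**Figure D4:**
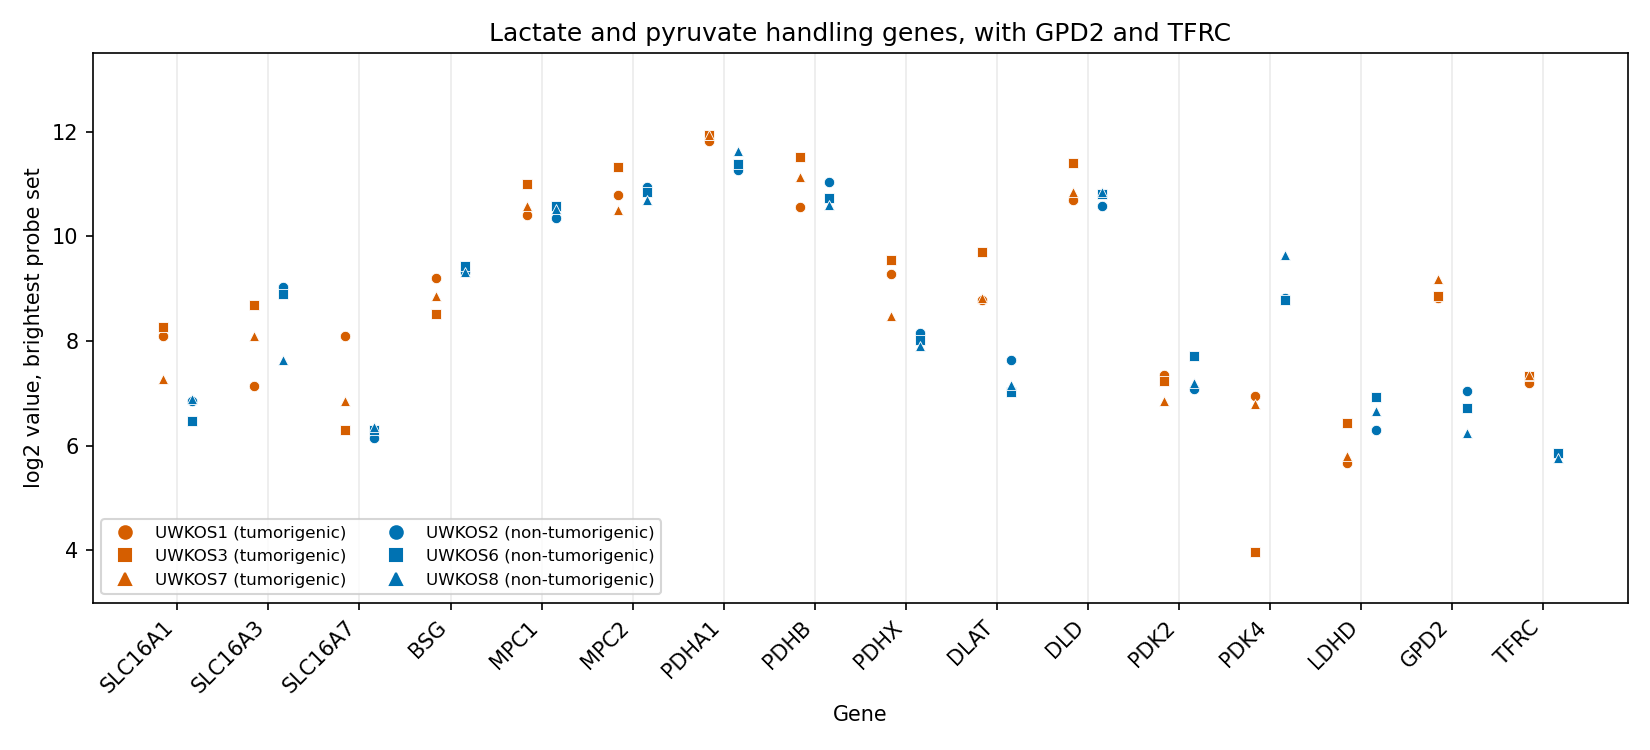
Log2 value of the brightest probe set (vertical axis) in each line for the 14 tested genes of lactate and pyruvate handling and for GPD2 and TFRC (horizontal axis), tumorigenic lines in orange and non-tumorigenic lines in blue. DLAT, GPD2 and TFRC are higher in each tumorigenic line than in any other; PDK4 is lower.

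Of 12 tested regulators of HIF, 0 passed in limma, and 4 had an unadjusted p under 0.05, a share close to that of all genes. The smallest p belonged to OS9, a lectin of the endoplasmic reticulum, with a difference of -0.83 (limma adjusted p = 0.0635). Of 24 tested further hypoxia targets, the transferrin receptor TFRC rose. It read 7.19, 7.33 and 7.34 in UWKOS1, UWKOS3 and UWKOS7, against 5.84, 5.85 and 5.77 in UWKOS2, UWKOS6 and UWKOS8. The groups did not overlap. The non-tumorigenic mean of 5.82 lay under the filter value, so TFRC was tested through its tumorigenic values and the size of the rise is uncertain. The difference of 1.47 (SE 0.14) passed with the filter (limma adjusted p = 0.0112) and in the unfiltered fit (limma adjusted p = 0.00945), and did not pass without UWKOS6 (limma adjusted p = 0.0713), where 12 of 9145 genes passed in all. The median difference of the 24 was -0.21, with 17 of them lower on average in the tumorigenic lines. Over all genes tested, 4338 of 9145 were lower on average.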

How the data were processed

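The deposited table holds log2 values for 43035 probe sets on 1 Affymetrix canine array per line; MAS5 is the only tool named, without a version, per the submitters' processing notes. The log2 scale was read from the range of the deposited values; the summary method is not given in the sources used here. They entered the fit unchanged and without detection calls, so a value under the filter is not known to lie above background.

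Besides 111 controls there were 42924 probe sets: 29254 carried 1 symbol, 439 carried several and 13231 have no name here. A match by gene identifier to the RefSeq table of UU_Cfam_GSD_1.0 gave 27680 of them a current symbol, and 1574 kept the listed one. The brightest probe set stood for a gene, and genes under the median of all probe sets were not tested. Groups were compared with limma 3.58.1 in R 4.3.3 (lmFit and eBayes, no covariate) with Benjamini-Hochberg adjustment over 9145 genes. Simulated data with known changes were used to test the script. Intervals are limma's 95% intervals, and lists are described by counts and medians without a test. The number of arrays limits the precision.

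The members, their roles and the lists were chosen with earlier results of these data known. Named by a set rule were all members, each neighbouring gene that passed, and the gene of smallest p in a list where none passed. The other neighbouring genes named were picked after their values were seen. The replicate numbers follow accession order and pair nothing. Figures were drawn with matplotlib 3.10.9.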

Additional observations from a re-analysis of the deposited data

How the results depend on the processing

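The report counts 3 members that passed. Over 19 alternatives 2 to 4 passed, except where lines were left out or a covariate was added: 0 passed with the transcript-end ratio of GAPDH added as a covariate and 0 without both UWKOS6 and UWKOS8, where 9 and 1 of 9145 genes passed in all. With each line left out in turn the count ran from 0 to 2, and it was 2 without UWKOS7 and 0 without any other line. Of all genes, 14.4% passed without UWKOS7. Without UWKOS1, UWKOS3, UWKOS2, UWKOS6 and UWKOS8 the share of all genes was 6.43%, 3.89%, 5.23%, 0.131% and 3.64%. Among neighbouring genes 3 passed as reported, 5 under quantile normalization and under 75th percentile centring, 7 with array weights, 6 with probe sets averaged per gene and 8 with hybridization control centring; 11.7%, 11.2%, 15.8%, 13% and 15.9% of all genes passed in these fits, in the same order. Again 0 passed with the covariate. Leaving out each line gave 0 to 8, beside the shares of all genes given above for these fits. Of all genes tested, 1000 of 15115 passed without a filter and 2580 of 21462 probe sets in the probe set fit. Without both lines, the lone UWKOS2 was taken to have the spread of the tumorigenic group. Over all genes, 686 rose and 423 fell as reported, 550 and 474 under 75th percentile centring, and 1146 and 304 under hybridization control centring, which moved the median of all genes to 0.20, the enzyme median to 0.17 and that of the other hypoxia targets to -0.14. Over the alternatives the enzyme median ran from -0.17 to 0.17 and that of the other hypoxia targets from -0.46 to -0.14, each less than 1 SD between lines (0.209 and 0.278) from its reported value. HK2, EGLN3, ADM, GPD2, DLAT and TFRC kept their direction in every alternative that gave a value. SLC2A3 passed with the upper quartile filter, the mean of its probe sets and hybridization control centring. The alternative for GAPDH and the order of lines within groups were added after seeing the data. No paired analysis was possible because the replicate numbers were given in accession order and the labels tie no line of one group to a line of the other.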

Other observations

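Some pathway genes were high or low in a single line; they were picked after their values were seen. FBP1, the gluconeogenic fructose bisphosphatase, read 8.77 in UWKOS2 and 4.52 to 5.08 in the other 5 lines, under the filter on average. STC1, a secreted hypoxia-induced glycoprotein, read 8.19 in UWKOS1 and 4.91 to 6.03 elsewhere. CA9, the carbonic anhydrase most used as a hypoxia marker, was high in UWKOS3 at 9.25 and in UWKOS2 at 8.88, and low in UWKOS6 and UWKOS8 at 6.46 and 5.82. UWKOS8 was the lowest non-tumorigenic line in 15 of the 24 further hypoxia targets and in 8 of the 12 HIF regulators, but in 2 of the 11 further glycolysis genes and 4 of the 14 genes of lactate and pyruvate handling.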
